A study of Homo sapiens with 8 samples.

Results

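Messenger RNA and N6-methyladenosine (m6A) peaks were compared directly between cultured human cells that had received ultraviolet (UV) light and cells that had received heat shock. The comparison took 4 of the 8 libraries of the series, namely 1 m6A immunoprecipitation (IP) library and 1 input library for each treatment, over all 25918 gene models of the deposited table. The UV cultures received 0.04 J per square centimetre and recovered for 4 h. The heat shock cultures were held at 43 °C for 30 min, and the label can be read with or without the same recovery. All 4 libraries came from cultures labelled HepG2, a human hepatocarcinoma line, grown in DMEM medium, with no genotype or transgene named. The other libraries, from cultures given hepatocyte growth factor or interferon gamma, were left out of the comparison. No untreated culture was analysed here, so each value places UV against heat shock and neither against a resting state. With 1 library of each kind per treatment no difference has a replicate check, and no p-value is given.

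m6A is an internal mark of mRNA. A writer complex built around METTL3 places it co-transcriptionally, FTO and ALKBH5 can remove it, and YTH-domain proteins read it, with effects on splicing, decay and translation. The mark lies mostly in long internal exons and near stop codons, within a short consensus whose commonest core is GGAC followed by U in RNA (T in the DNA letters used here). UV and heat shock call on different programmes: UV lesions in DNA activate p53 and nucleotide excision repair and induce immediate early genes, whereas heat activates HSF1 and the chaperone genes.

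Expression was deposited as a quantile, which ranks the models of a treatment against each other. It is given below as a percentile, carries no amounts and so allows no fold change, and the depth of the libraries is unknown. The column names do not say whether IP reads, input reads or both were ranked. Models tied at the lowest value formed a floor at the 45.5th percentile after UV (11798 models) and the 32.7th after heat shock (8487 models). Both treatments were raised to the higher floor before subtraction. Differences are given as UV minus heat shock in percentile points, for models at the 60th percentile or more in at least 1 of the treatments, and 10 points or more was taken as a difference worth counting. Peaks carry the authors' enrichment score, with a lowest value of 2. The formula of the score was not given in the sources used here. In bulk samples fewer cells of a type and less RNA per cell cannot be told apart.

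The cell label was checked against liver genes first. Of 16 hepatocyte markers, 3 passed the filter, 12 were at the floor after UV and 7 were at the floor after heat shock. Over all 24721 symbols 11219 passed, 10844 were at the floor after UV and 7595 at the floor after heat shock. Albumin (ALB) stood at the UV floor of 45.5 and at 57.6 after heat shock, and alpha-fetoprotein (AFP), apolipoprotein A1 (APOA1) and the fibrinogen chain FGB were at the floor in both. Of 45 secreted liver proteins, 4 passed. The markers that passed were FOXA1 (71.8 after UV and 68.9 after heat shock), TTR (76.1 and 71.5) and CEBPA (68.4 and 62.6). Among markers of other cell types, 3 of 8 for bile duct, 4 of 11 for fibroblasts and endothelium and 2 of 10 for blood cells passed. At the floor after UV were 4 of the bile duct markers, 5 of those for fibroblasts and endothelium and 8 of those for blood cells. The label HepG2 is therefore not borne out by the defining liver transcripts in either treatment, and the material is called here the cultures labelled HepG2.

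The sequence under the peaks was read where a gene model had the span and exon structure of a GENCODE 29 transcript. This held for 635 of the 7407 models with a peak in either treatment, or 8.57%, so the windows below describe a small subset. The motif GGACT, searched on the transcript strand only, lay within 50 nt of 31.4% of 720 positions with a peak after both treatments (95% interval 28.0 to 34.9). It lay near 24.4% of 480 peaks listed after UV alone (20.6 to 28.5) and 23.2% of 168 listed after heat shock alone (17.1 to 30.3). In 20376 windows of the same 101 nt length, taken in the same transcripts over 200 nt from any peak, the share was 8.08% (7.71 to 8.47). All 3 shares of peaks lay above that of windows away from peaks, and their intervals overlap each other. The intervals here and below are exact Clopper-Pearson intervals for counting error only, and a match is a stretch of letters, not a mapped methylation site.

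The following stretches show the motif nearest to a peak in genes named below, and in SLC35A4 as an example of a peak after heat shock alone, with the motif in capitals, 5′ to 3′ on the transcript strand, from GRCh38. Where GGACT was absent near the peak, the nearest related motif is shown. The related motifs searched were GGACC, then GGACA with a final purine, AGACT with a leading A, its relative GAACT and a form without G, AAACT. The SLC1A3 stretch is at chr5:36680492-36680516 (plus strand, coding sequence), with a peak after both treatments and a score ranking higher after heat shock. The ERCC3 stretch is at chr2:127289697-127289721 (minus, coding sequence) and WDR85 at chr9:137555303-137555327 (minus, around the stop codon), both with peaks after both treatments. The next 4 lay under peaks listed after UV alone: RNF20 at chr9:101562506-101562530 (plus, around the stop codon), PHLDA1 at chr12:76031008-76031032 (minus, coding sequence), TRAP1 at chr16:3658097-3658121 (minus, around the stop codon) and MUC16 at chr19:8976535-8976559 (minus, coding sequence). The SLC35A4 stretch at chr5:140566950-140566974 (plus, 5′ UTR) lay under a peak listed after heat shock alone.
SLC1A3: aacatggatgGGACTgccctctatg
ERCC3: ctcatcacagAGACTttcacaagca
WDR85: cagaagaagcAGACTcagccttcag
RNF20: gtcacctgtaGGACAgtttatcagt
PHLDA1: tgaagaccgtGGACTgtgtggagcg
TRAP1: ggggccagaaGGACTgacaccacag
MUC16: gcagaactggGGACTtaacaactgt
SLC35A4: tagctccatgGGACTcgccccaaga

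The share of peaks with GGACT differed more between segments of the transcript than between treatments. In coding sequence it was 27.3% for 542 UV peaks (23.6 to 31.3) and 28.3% for 417 heat shock peaks (24.0 to 32.9). Around the stop codon it was 29.1% and 30.9%, in the rest of the 3′ UTR 32.5% and 32.2%, and in the rest of the 5′ UTR 48.6% of 37 and 51.6% of 31. Peaks at the transcript start were different: 7 of 69 UV peaks (10.1%, 4.18 to 19.8) and 3 of 38 heat shock peaks (7.89%, 1.66 to 21.4) had the motif. In transcripts without a start peak the same window at the transcript start held it in 9.35% of 556 (7.06 to 12.1). These intervals for GGACT overlap. GGACA lay near 15.9% of UV start peaks (8.24 to 26.7) and 26.3% of heat shock start peaks (13.4 to 43.1), against 8.81% of starts without a peak (6.59 to 11.5), so the heat shock interval lay above the last. Any of the 6 motifs lay near 50.7% (38.4 to 63.0), 55.3% (38.3 to 71.4) and 42.8% (38.7 to 47.0).

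**Figure D1:**
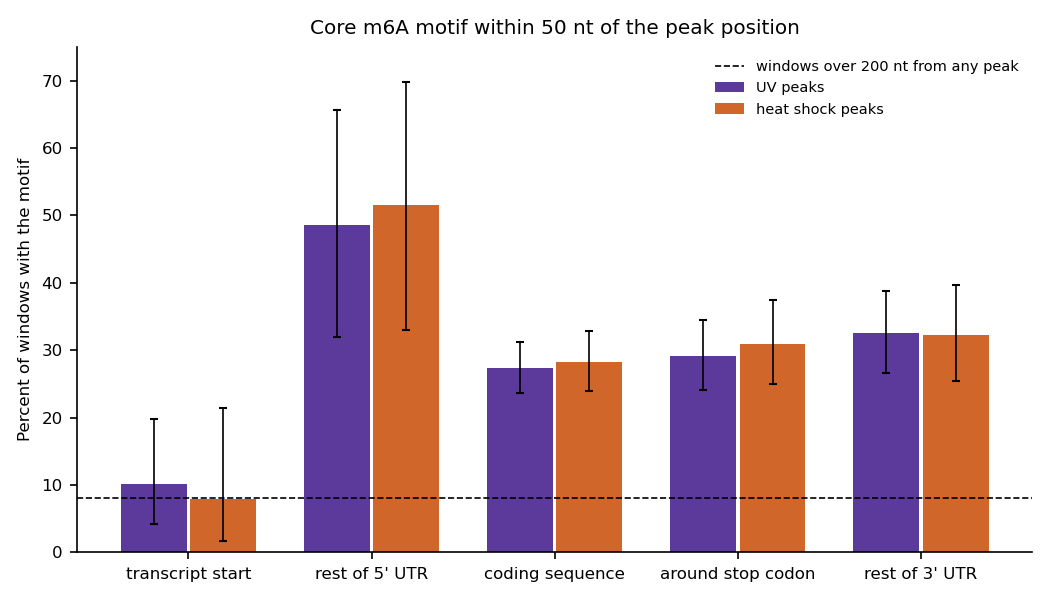
Percent of windows with the motif GGACT within 50 nt of the peak position (vertical axis) by transcript segment (horizontal axis) for UV peaks (purple) and heat shock peaks (orange), with exact 95% intervals. The dashed line is the share over 200 nt from any peak (8.08%). Transcript-start peaks sit near that line in both treatments and the other 4 segments lie above it.

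Ranks agreed closely between the treatments. The filter left 11396 models, of which 960 stood at least 10 points higher after UV (8.42%) and 925 at least 10 points higher after heat shock (8.12%). The remaining 83.5% lay within 10 points and 63.1% within 5. The median difference was -0.0810 points, and Spearman's rho across these models, which are not independent replicates, was 0.880. The share that differed fell with rank, and percentiles are compressed at the top: 20.2% at a mean percentile from 60 to under 75, 6.53% from 75 to under 90 and 0.0792% (2 models, both higher after heat shock) at 90 or more. With 1 model per symbol, the unit used for the gene lists, 924 of 11219 ranked higher after UV (8.24%) and 891 after heat shock (7.94%).

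**Figure D2:**
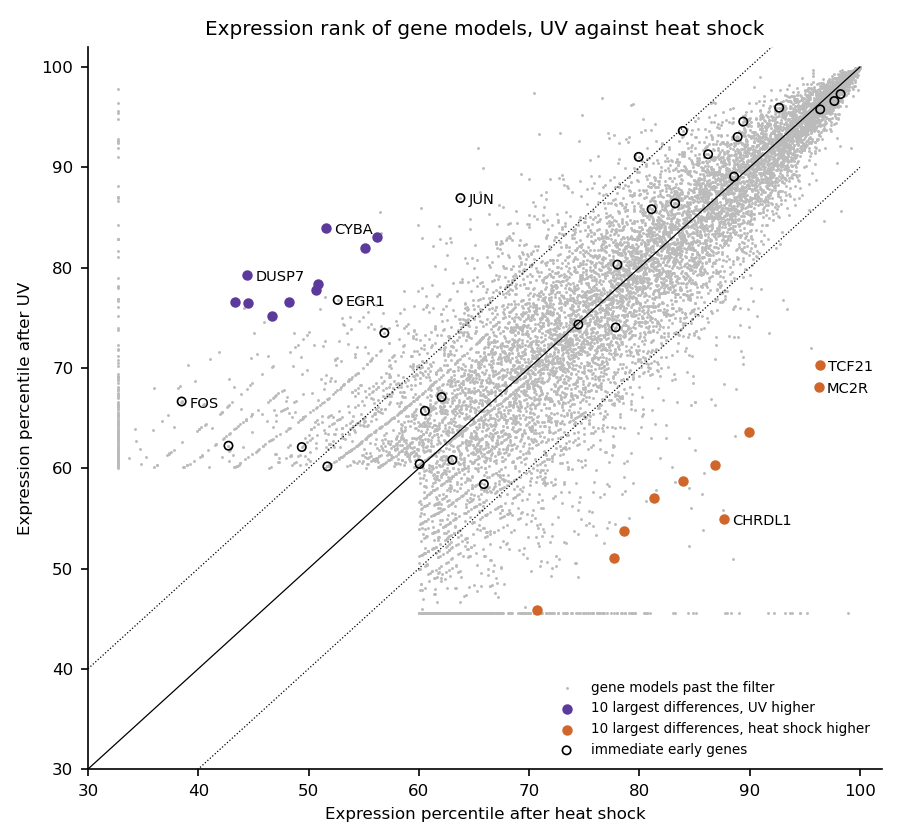
Expression percentile after heat shock (horizontal) against UV (vertical) for the 11396 gene models past the filter, with the line of equality and dotted lines 10 points to each side. Purple and orange points are the 10 largest differences among models above the floor of each treatment's own list, open circles are the immediate early genes, and the rows of points at 32.7 and 45.5 are models at a floor.

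The genes ranking furthest above heat shock after UV were enzymes and membrane proteins of several kinds. DUSP7, a phosphatase that inactivates ERK (iduc003dct.1, chromosome 3, 52059799 to 52065329, minus strand, as deposited), stood at 79.3 after UV and 44.4 after heat shock. CYBA, the p22phox subunit of NADPH oxidases (iduc002flb.1, chromosome 16, 87237198 to 87244958, minus strand), stood at 83.9 and 51.5. TEX264, a receptor for autophagy of the endoplasmic reticulum, stood at 76.6 and 43.3. CCDC53, a WASH complex subunit, stood at 76.6 and 48.2, and EEFSEC, the elongation factor for selenocysteine, at 77.7 and 50.7. COX8A, a subunit of cytochrome c oxidase, stood at 81.9 and 55.1. The other 4 of the largest 10 were MDP-1, PSCA, ROGDI and WDR85, between 75.2 and 83.1 after UV and between 44.5 and 56.2 after heat shock. TSPO, a cholesterol-binding protein of the outer mitochondrial membrane, stood at 82.9 after UV and was listed at the floor after heat shock. C1QL1, SEPW1 (selenoprotein W), CBR3 (a carbonyl reductase) and SNHG9 were likewise at the heat shock floor, at 71.2 to 73.9 after UV.

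The genes ranking furthest above UV after heat shock included developmental regulators and extracellular proteins. CHRDL1, a secreted antagonist of bone morphogenetic proteins (iduc004eow.1, chromosome X, 109805129 to 109925649, minus strand), stood at 55.0 after UV and 87.7 after heat shock. MC2R, the adrenocorticotropin receptor (iduc002ksp.1, chromosome 18, 13872043 to 13905535, minus strand), stood at 68.1 and 96.2. The mesodermal transcription factor TCF21 stood at 70.3 and 96.3. The remaining 7 were PXK (51.1 and 77.7), the potassium channel KCNK6 (60.4 and 86.9), the G protein subunit GNG7 (63.6 after UV), the proteoglycan biglycan (BGN, 58.8 and 83.9), the myosin MYH14 (45.9 and 70.7), the homeobox factor EMX2 (53.8 and 78.6) and the Wnt-receptor ligand norrin (NDP, 57.0 and 81.3). At the UV floor stood TREML2, KRMP1, EBPL, LY6G5B and the co-chaperone DNAJC12, at 76.3 to 84.4 after heat shock.

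The genes at these extremes also differed in peaks. Of the 10 genes furthest above after UV, DUSP7, CYBA, TEX264, PSCA, EEFSEC and WDR85 had 1 peak after each treatment, and none of the 10 furthest above after heat shock had a peak in either. Over all models ranking at least 10 points higher after UV, 41.0% had a UV peak (37.9 to 44.2) and 29.7% a heat shock peak (26.8 to 32.7). Over those ranking higher after heat shock, 24.0% (21.3 to 26.9) and 16.8% (14.4 to 19.3) did. In models within 5 points the shares were 65.3% and 54.3%.

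The difference between treatments followed base composition. GC content, read from the longest transcript that GENCODE gives the symbol, could be assigned to 89.9% of models past the filter. Over 9870 coding symbols the rank difference and GC had a rho of 0.419, a description across genes. From the lowest to the highest quintile of GC, the median difference was -2.02, -0.955, -0.118, 1.26 and 3.70 points. The share ranking at least 10 points higher after UV was 1.87% in the lowest quintile and 18.2% in the highest. Genomic span went with it less: the median was 1.33 points in the shortest quintile and -0.849 in the longest, with a rho of -0.196. After subtraction of the median of models in the same of 40 GC bins, these were 0.359 and -0.245, with a rho of -0.0709. The part of library preparation and of transcript biology in the GC relation cannot be told apart with 1 library of each kind. After this GC correction 597 models ranked at least 10 points higher after UV and 603 after heat shock.

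Immediate early genes were the listed stress programme with the most members higher after UV. Of 29 genes 27 passed the filter, 7 ranked at least 10 points higher after UV and 0 after heat shock, and the list median was 4.72 points against -0.0810 over all symbols. Over all symbols 8.24% ranked at least 10 points higher after UV and 7.94% after heat shock. EGR1, a zinc finger factor (iduc003ldb.1, chromosome 5, 137829080 to 137832903, plus strand), stood at 76.8 after UV and 52.6 after heat shock. JUN (iduc001cze.1, chromosome 1, 59019051 to 59022373, minus strand) stood at 86.9 and 63.8, and FOS, its AP-1 partner (iduc001xrn.1, chromosome 14, 74815284 to 74818665, plus strand), at 66.7 and 38.5. EGR3 (62.2 and 42.7), the mRNA decay factor ZFP36 (73.5 and 56.9), KLF2 (62.1 and 49.4) and the matricellular protein CTGF (91.0 and 79.9) were the others. EGR1, FOS, EGR3, ZFP36 and KLF2 passed the filter through their UV value alone. After heat shock FOS and EGR3 lay under the UV floor of 45.5 and were counted at that floor. Not all members ranked higher after UV: NR4A3 stood at 58.4 and 65.9, NR4A2 at 74.0 and 77.9, and CYR61 at 96.6 and 97.7. After GC correction the list median was 1.36 points, with 6 genes higher after UV and 0 after heat shock.

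Several immediate early transcripts had peaks after UV alone. Of the 27 genes 23 had a UV peak and 17 a heat shock peak, with 6 genes having a peak after UV alone and 0 after heat shock alone. Over all symbols past the filter 58.2% had a peak after UV and 47.3% after heat shock, 12.7% after UV alone and 1.91% after heat shock alone. EGR1 had 4 UV peaks, at transcript positions 62 (score 2.28), 940 (4.52), 1570 (2.40) and 1897 (3.70), and none after heat shock. FOS had UV peaks at 81, 984 and 1480 with scores of 3.66, 3.88 and 2.81, and none after heat shock. JUN had UV peaks at 977 in the 5′ UTR (3.96) and 2272 in the 3′ UTR (4.71), and 1 heat shock peak at 905 (2.49). JUNB, at 86.4 and 83.2, had 2 UV peaks and none after heat shock. Since the rank of EGR1 and FOS was also lower after heat shock, a missing peak there is not shown to be a missing mark.

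Heat shock genes ranked high in both treatments, with list medians of 96.8 after UV and 96.4 after heat shock over the 39 of 40 genes past the filter. Those ranking at least 10 points higher after heat shock were 3: HSF2, a heat shock transcription factor (iduc003pyu.1, chromosome 6, 122762494 to 122795810, plus strand), at 55.1 and 79.1, the small heat shock protein HSPB8 at 73.1 and 88.5, and the co-chaperone DNAJA4 at 77.2 and 87.7. That count is close to the 7.94% over all symbols. At a mean percentile of 90 or more, where percentiles are compressed, 0.0792% of models differed by 10 points. The list medians lie in that range, so the count says little about the highest-ranked members. HSF2 passed the filter through its heat shock value alone. CRYAB, another small heat shock protein, was the 1 gene higher after UV, at 60.1 against the heat shock floor. It passed the filter through its UV value alone. The inducible HSP70 gene HSPA1A stood at 84.9 after UV and 91.7 after heat shock, and its near-identical neighbour HSPA1B at 89.0 and 88.3, so the split between the pair is uncertain. DNAJB1, the main HSP40, stood at 92.4 and 86.4, HSPH1 at 98.1 and 99.5, and HSP90AA1 at 99.8 and 99.9. HSPA6, the strictly inducible HSP70, was at the floor in both. HSF1 stood at 90.2 and 85.3. The list median difference was -0.0772 points.

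Peaks on heat shock transcripts were shared for the most part. The UV list had a peak in 34 of the 39 genes and the heat shock list in 31, with 4 after UV alone and 1 after heat shock alone, near the 12.7% and 1.91% over all symbols. HSPA1A had a peak at the transcript start, at position 77 after UV (score 5.18) and 84 after heat shock (3.99), and another around the stop codon at 2017 (6.53) and 2019 (6.93). HSPA1B had its 1 peak at the start, at 89 (7.61) and 99 (4.32). DNAJB1 had 3 UV peaks, at 82, 440 and 1101, and 3 heat shock peaks, at 77, 448 and 1100. At HSPD1, the mitochondrial chaperonin, the start peak scored 6.16 after UV and 8.29 after heat shock, and at DNAJB4, a co-chaperone, 2.47 and 4.75. HSPH1 had its 1 peak at position 90 at the start after UV (3.30) and at 377 in the 5′ UTR after heat shock (4.42). TRAP1, the mitochondrial HSP90, had 1 peak after UV (2.92) and none after heat shock.

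Targets of p53 and DNA damage signalling ranked about alike. Of 34 genes 27 passed the filter, with a list median of 1.64 points. The 3 that ranked at least 10 points higher after UV were the kinase PLK3 (61.5 and 37.4), TP53I3 (75.3 and 62.0) and the cell cycle inhibitor CDKN1A (68.0 and 57.0). PLK3 and CDKN1A passed the filter through their UV value alone. After heat shock PLK3 lay under the UV floor of 45.5 and was counted at that floor. CDC25A, a phosphatase that drives the G1 to S transition, was the 1 gene higher after heat shock (70.4 and 81.7). Over all symbols 8.24% ranked higher after UV and 7.94% after heat shock, and with GC correction 1 gene of the list ranked higher after UV and 2 after heat shock. MDM2, the p53 ubiquitin ligase, stood at 93.4 and 94.9, BAX at 68.4 and 76.0, and GADD45A at 82.5 and 75.8. The UV list had peaks in 17 of the 27 and the heat shock list in 12, with 5 after UV alone and 0 after heat shock alone. The shares with a peak, 63.0% and 44.4%, stand beside 58.2% and 47.3% over all symbols. Of all symbols 12.7% had a peak after UV alone and 1.91% after heat shock alone. PHLDA1, at 55.3 and 55.4 and so below the filter, had a coding-sequence peak at position 779 after UV (3.86) and none after heat shock. Of 36 nucleotide excision repair genes past the filter 1, XAB2, ranked higher after UV (88.2 and 76.9) and 0 after heat shock, with a median of -0.563 points. ERCC3, a helicase subunit of TFIIH, had its coding-sequence peak in both, at 742 (5.25) and 757 (2.99).

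No member of the m6A machinery differed by 10 points, against 8.24% higher after UV and 7.94% after heat shock over all symbols. The list medians were 89.1 and 89.8, where percentiles are compressed. Of models at a mean percentile from 75 to under 90, 6.53% differed by 10 points, and at 90 or more 0.0792% did. The absence of such members therefore says little. The 21 genes in the table all passed the filter, with a list median of -0.428 points and a range from -4.97 (ZC3H13) to 7.32 (METTL3). METTL3, the catalytic writer (iduc001wbc.1, chromosome 14, 21036122 to 21049297, minus strand), stood at 89.9 after UV and 82.6 after heat shock. The writer cofactors WTAP (92.9 and 93.0), KIAA1429 (90.3 and 91.6) and RBM15 (90.7 and 89.8) lay closer together. The erasers were at 84.9 and 85.3 (FTO) and at 90.5 and 85.7 (ALKBH5). Among the readers YTHDF1 stood at 89.1 and 89.9, YTHDF2 at 86.9 and 90.8 and YTHDF3 at 93.9 and 93.2. Each treatment had peaks in 16 of the 21 genes (76.2%), against 58.2% after UV and 47.3% after heat shock over all symbols. A peak was listed after UV alone in 2 genes and after heat shock alone in 2, against 12.7% and 1.91% over all symbols. WTAP carried 1 peak after heat shock, at position 1072 in coding sequence with a score of 6.16, and none after UV. METTL3 had a start peak and a coding-sequence peak in both, at positions 116 and 636 in the UV list and 104 and 642 in the heat shock list. ALKBH5 had 4 UV peaks and 1 heat shock peak.

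Other gene groups had list medians near that over all symbols, before GC correction. Over all symbols 8.24% ranked at least 10 points higher after UV and 7.94% after heat shock. The unfolded protein and integrated stress response had 1 of 24 genes higher after UV (PPP1R15A, 79.1 and 67.8) and 1 after heat shock (EDEM1, 66.3 and 76.5). CHAC1, another gene of that response, was under the filter at 59.3 and 42.4. Of 71 oxidative phosphorylation genes, COX8A, NDUFB6 (86.1 and 67.6), COX6A1 (85.1 and 70.5) and NDUFB2 (93.8 and 80.5) ranked higher after UV, and NDUFS7 (UV floor and 63.6) and SDHD (54.5 and 69.7) higher after heat shock. COX8A passed the filter through its UV value alone, and NDUFS7 and SDHD through their heat shock values alone. The cholesterol synthesis enzymes PMVK (83.0 and 62.8), DHCR7 (76.9 and 65.5) and LSS (67.2 and 56.8) ranked higher after UV, of 23, and 0 after heat shock, with a list median of -0.401 points. LSS passed the filter through its UV value alone. With GC correction 1 of the 23 ranked higher after UV and the median was -1.62 points. Among 32 proteasome, 34 proliferation and 19 splicing factor genes, 0 differed by 10 points in either direction. Their list medians lay between 95.5 and 97.8, where percentiles are compressed. At a mean percentile of 90 or more 0.0792% of models differed by 10 points, so these zeros do not show stable expression. The histone list, of 50 replication-dependent genes whose copies share sequence, had 6 higher after heat shock and 1 after UV, with a median of -0.471 points. With GC correction 8 of the histone genes ranked higher after heat shock and 1 after UV, and the median was -2.73 points. HIST1H1D stood at 73.5 and 91.7 and HIST2H2AB at 76.8 and 93.0. The labels describe polyA selection, and how histone transcripts were captured was not tested. Of 272 numbered zinc finger genes 19 ranked higher after UV and 26 after heat shock, and of 136 solute carriers 14 and 12, close to the background above.

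**Figure D3:**
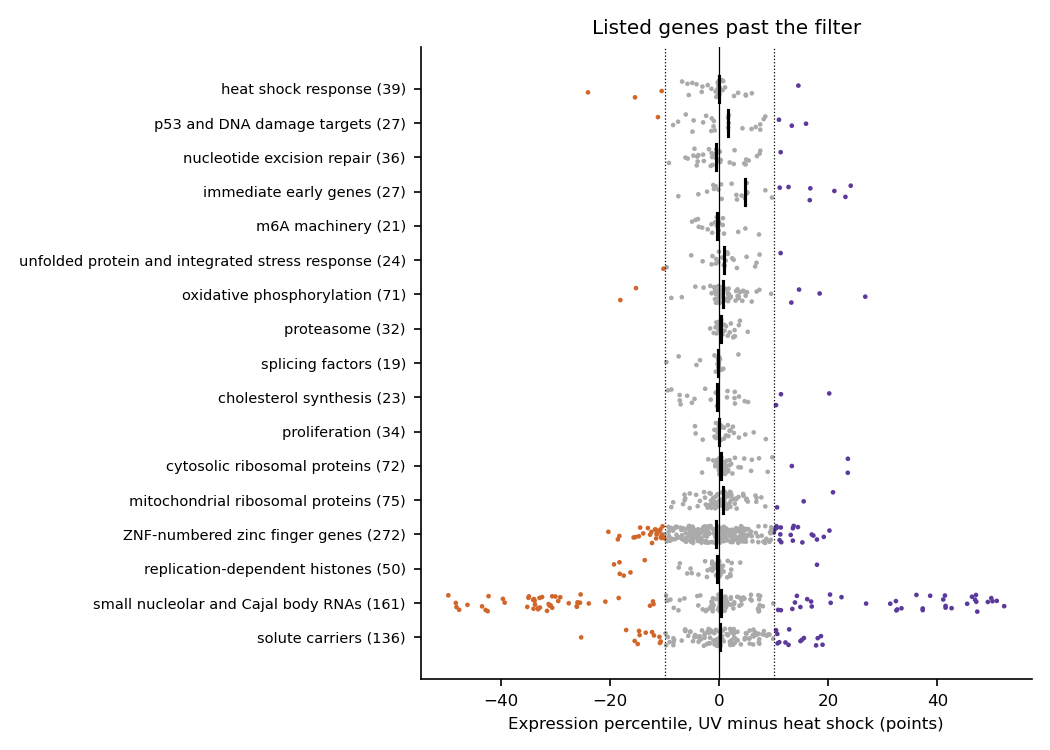
Expression percentile difference, UV minus heat shock in points (horizontal), for each gene past the filter in 17 lists (vertical, number of genes in brackets). Purple and orange points lie at least 10 points to either side and black bars are list medians. Most points lie inside the dotted lines, the immediate early median is furthest from 0 at 4.72, and small nucleolar RNAs spread furthest.

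UV had the longer list of m6A peaks. The table held 13307 UV peaks in 7172 models and 9803 heat shock peaks in 5663 models. Of all 25918 models 5426 had a peak in both, 1746 after UV alone (6.74%) and 237 after heat shock alone (0.914%). The shared models were 75.7% of those with a UV peak and 95.8% of those with a heat shock peak, and when the UV list was cut to its highest-scoring peaks, as many as after heat shock, 1221 models had a peak after UV alone (4.71%) and 718 after heat shock alone (2.77%). Among the 2231 models at the 90th percentile or more in both, 280 had a peak after UV alone (12.6%) and 61 after heat shock alone (2.73%). Where both treatments listed a peak, the number was equal in 3169 models, larger after UV in 1678 and larger after heat shock in 579. The number of peaks can move with depth, which is unknown, and that part was not tested.

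The positions coincided. Peaks of the same model within 100 nt of each other were paired 1 to 1, which gave 8154 matched sites in 5290 models, or 61.3% of UV peaks and 83.2% of heat shock peaks. The median offset was 0 nt, with quartiles at -7 and 8 nt, and 59.7% of pairs lay within 10 nt and 97.4% within 50 nt. The deposited segment was the same in 98.7% of 7985 annotated pairs. With fragments of about 100 nt these offsets are small against the length of a fragment. UV peaks without a partner numbered 5153, with a median score of 3.33, and heat shock peaks without one 1649, with a median of 2.95. Matched peaks had medians of 4.60 and 3.87.

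Matching rose with score. From the lowest to the highest quintile of UV scores, 32.9%, 48.1%, 63.2%, 72.0% and 90.2% of peaks had a heat shock partner. For heat shock the shares were 65.5%, 80.7%, 86.6%, 89.6% and 93.6%. When the UV list was cut to its 9803 highest-scoring peaks, 70.7% of each list was matched. Peaks without a partner were thus commonest among low scores in both lists.

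**Figure D4:**
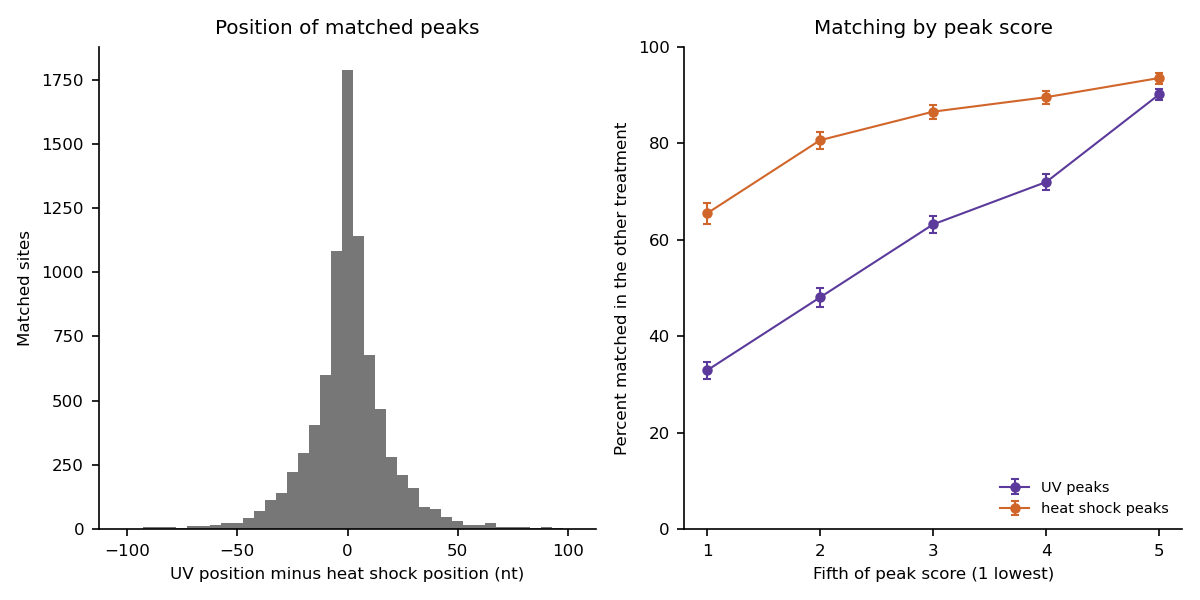
Left, number of matched sites (vertical) by UV position minus heat shock position in nt (horizontal), in bins of 5 nt. Right, percent of peaks matched in the other treatment (vertical) by quintile of peak score (horizontal) for UV (purple) and heat shock (orange), with exact 95% intervals. Offsets centre on 0 and the matched share climbs from 32.9% to 90.2% for UV and from 65.5% to 93.6% for heat shock.

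Some abundant transcripts had a high-scoring peak in 1 list alone. RNF20, an E3 ligase for histone H2B (iduc004bbn.1, chromosome 9, 103335954 to 103365447, plus strand), stood at 92.1 and 95.1 and had a UV peak around the stop codon at position 3127 with a score of 7.32. SFRS12, a splicing regulator, had a UV peak in the 3′ UTR at 2272 (7.11), and the chromatin remodeller SMARCA5 one in the 5′ UTR at 349 (6.76). TRUB2 at 1169 (6.75), GHITM at 188 (6.68) and the helicase DDX55 at 1761 (6.66) completed the 6 highest. After heat shock alone, IK, a spliceosome component, had a start peak at 133 (6.43), and TXNL1, a thioredoxin-like protein, a peak at 524 (6.19). WTAP followed with 6.16, then the secretory pathway receptor TMED10 at 815 (5.99), the stress granule protein G3BP2 at 1911 (5.95) and RBM28 at 2459 (5.94). All 12 of these models stood at the 90th percentile or more in both treatments, as the rule for naming them required.

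Genes with many peaks differed most in number. The mucin MUC16 had 12 UV peaks and 5 heat shock peaks at percentiles of 58.9 and 61.8. CEP350, a centrosomal protein, had 9 and 3, TTC28 8 and 2, KIAA1549 7 and 1, and AHNAK2 10 and 4. In the other direction the long noncoding RNA listed as NCRNA00084, which RefSeq gives as a synonym of NEAT1 (iduc001odw.1, chromosome 11, 64949093 to 64963719, plus strand), had 3 UV peaks and 10 heat shock peaks. It is the scaffold of paraspeckles, and it stood at 91.9 after UV and 99.2 after heat shock. AHNAK had 16 and 21, CHST3 2 and 6, DIP2A 0 and 4, and HIVEP1 4 and 8.

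Scores were higher after UV. At 74.6% of matched sites the UV score exceeded the heat shock score, and rho between both was 0.675 across sites. Because the formula is unknown, scores were turned into ranks among matched sites, and 25 points or more was counted. By this measure 1096 sites ranked higher after UV (13.4%) and 1126 after heat shock (13.8%), and 72.7% lay within 25 points. Ranking centres both treatments on the same sites, so near-equal counts in both directions follow from it. The rank difference of the score had a rho of -0.0160 with the expression difference of the model.

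Sites at the transcript start ranked higher after heat shock more often than sites in the other segments. Of 704 matched sites there, 177 ranked at least 25 points higher after heat shock (25.1%) and 51 after UV (7.24%), with a median of -6.97 points. Around the stop codon the shares were 10.8% and 15.5%, in the 3′ UTR 12.5% and 15.3%, in coding sequence 13.7% and 12.5%, and in the rest of the 5′ UTR 17.9% and 15.1%. The median expression difference of the models with start sites was -0.0617 points. UV start peaks lay between positions 52 and 199 and heat shock start peaks between 53 and 199, with medians of 103 and 104. Unranked, the UV score was the higher at 60.8% of start sites and 79.1% of stop-codon sites.

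**Figure D5:**
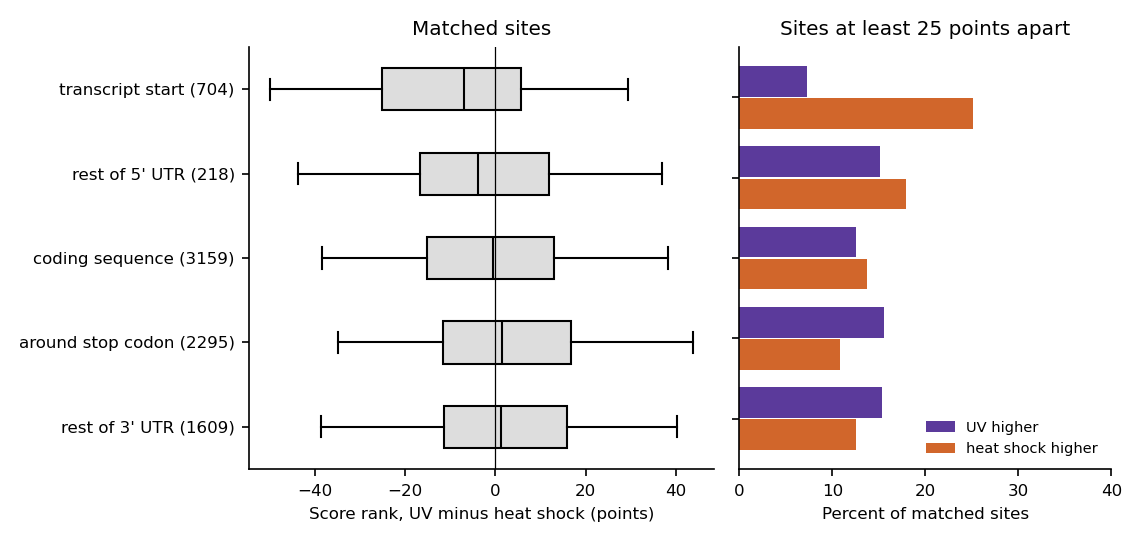
Left, score rank difference, UV minus heat shock in points (horizontal), at matched sites by transcript segment (vertical, number of sites in brackets). Boxes show median and quartiles, whiskers the 5th and 95th percentiles. Right, percent of matched sites at least 25 points apart (horizontal) by the same segments, UV higher in purple and heat shock higher in orange. The transcript start stands out with 25.1% of sites higher after heat shock and 7.24% higher after UV.

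The single sites with the largest rank differences are drawn from the same ranks and serve only as examples. Among the largest toward heat shock were start sites of HNRNPA3, an RNA-binding protein, with scores of 3.40 after UV and 6.20 after heat shock, of TM9SF3 with 3.50 and 6.64, and of the retromer subunit VPS29 with 2.10 and 4.82. First of all was the nuclear noncoding RNA MALAT1 (iduc001odx.1, chromosome 11, 65022410 to 65030999, plus strand), at 3.07 and 6.60 near position 510. Its other matched sites scored 6.08 and 4.57 near 1826, and 2.28 and 2.30 near 3051. MALAT1 stood at the 99.9th percentile in the UV list and at 99.95 after heat shock. CDCA8 scored 2.92 and 5.28 around the stop codon. In coding sequence RNF219 scored 3.20 and 5.56, and the glutamate transporter SLC1A3 2.68 and 5.04. Toward UV, 0 of the 8 were start sites, which made up 8.82% of annotated matched sites. CC2D1B scored 7.11 and 2.75 and the nicalin gene NCLN 5.98 and 2.21, both in the 3′ UTR. UBE2N, the ubiquitin-conjugating enzyme for lysine-63 chains, scored 6.06 and 2.36 and the protease inhibitor SERPINB9 6.06 and 2.41, both in coding sequence. ALS2CL, FAM129B, MTAP and TULP4 completed the 8, with UV scores between 5.58 and 6.62 and heat shock scores between 2.15 and 2.80.

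The share of peaks per segment was close. The transcript start held 9.49% of annotated UV peaks (8.99 to 10.0) and 8.47% of annotated heat shock peaks (7.92 to 9.05), and in models with a peak in both these were 8.41% and 8.31%. Among peaks without a partner the start held 10.6% for UV (9.74 to 11.5) and 6.88% for heat shock (5.68 to 8.23). Coding sequence held 38.1% of UV peaks without a partner (36.8 to 39.5) and 46.9% of those after heat shock (44.4 to 49.4). The intervals of these unmatched shares do not overlap, but they cover counting error only and take peaks of the same model as independent. They do not measure the spread between cultures. Of models with a start peak, 45.0% after UV and 51.4% after heat shock had no peak elsewhere.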

How the data were processed

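The authors deposited 1 table, in which each treatment has an expression quantile (a fraction from 0 to 1), a count of m6A peaks and, per peak, a position, exon, segment and score, as the file headers name them. The assay, per the labels' protocols, used polyA+ RNA cut to fragments of about 100 nt, an anti-m6A antibody and random-primed cDNA. Not given in the sources used here are the aligner, peak caller, pooling and genome build. Coordinates are the deposited ones, with starts counted from 1. Depth is unknown.

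Members and gene lists were chosen with earlier results of these data known, and the motif search and the choice of stretches shown were added after the peak results had been seen. Models were kept at a percentile of 60 or more in UV or heat shock, so a model could pass only through the treatment in which it ranked higher. For gene lists the model with the highest mean percentile stood for its symbol. Named genes were the 10 largest differences per direction above the floor of each treatment's own list (values under the UV floor counted as that floor), the 5 largest at a floor, list members past 10 points (up to 4 per direction, any member for the stress and m6A lists), the 8 largest score rank differences, the 6 highest-scoring peaks in 1 treatment alone and the 5 largest differences in peak number, each per direction. Small nucleolar RNAs and unrecognised symbols were not named. A gene that the rule names is not reported here. The hepatocyte markers printed, HIST2H2AB, CHAC1, the stretches shown and values for list genes outside the rule were chosen after they were seen. Scripts were tested on simulated data. Tables were computed in Python 3.11.15 with NumPy 2.4.6 and pandas 2.3.3, intervals with SciPy 1.17.1 and figures with matplotlib 3.10.9. GC content and sequence came from GENCODE 29.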

Additional observations from a re-analysis of the deposited data

How the results depend on the processing

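Of 92 alternative values 42 stayed near the value reported and 50 moved. The balance between models higher after UV and after heat shock, 50.9% UV, turned to heat shock at 20 points. It stayed inside the counting interval of the value reported without the filter (1288 and 1293, 49.9% UV) and with GC correction (49.75% UV). Models higher after UV and after heat shock numbered 2128 and 2072 at 5 points, 170 and 204 at 20 points (45.5% UV), 275 and 214 for a 2-fold rank from the top on a log2 scale (56.2% UV), 147 and 106 at a mean percentile of 75 or more (58.1% UV), 1745 and 1671 when re-ranked above both floors, and 597 and 603 with GC correction. At 5 points the lists gave 13 immediate early, 9 p53 and 10 mitochondrial ribosomal genes higher after UV, and 6 heat shock and 11 histone genes higher after heat shock. On the log2 rank scale these were 4 immediate early and 0 p53 genes, and 5 heat shock and 11 histone genes, and with GC correction 1 p53 gene.

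Shared models were 80.2% of UV and 87.3% of heat shock models with UV cut to the heat shock number, 69.4% and 93.8% at scores of 3 or more, and 81.7% (90th percentile in both) and 80.0% (within 5 points) of UV models. Matched peaks were 59.7% and 81.0% within 50 nt, 84.1% of heat shock peaks within 200 nt, 57.4% of UV peaks at scores of 3 or more, and 70.7% of each with UV cut. The UV start share was 8.41% in models with peaks in both, 8.82% at matched peaks and 10.9% for 1 top peak per model (10.1% after heat shock). Score ranks gave 1953 and 1964 sites at 15 points, 559 and 564 at 35 points, and 624 and 648 in models at 75 or more in both. Start sites gave 94 higher after UV at 15 points, and 26 after UV and 108 after heat shock at 35 points. The cause of these movements was not tested.

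No paired analysis was possible because each treatment has 1 library of each kind, and for the same reason leaving out a replicate was not run. Depth, unknown here, limits what a missing peak or a floor value can show.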

Other observations

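Mitochondrial ribosomal protein transcripts had peaks more often after UV. Of 75 genes, all past the filter, 43 had a peak after UV and 26 after heat shock. A peak after UV alone was listed in 19 (12.7% over all symbols). A peak after heat shock alone was listed in 2, MRPL4 and MRPS2 (1.91% over all symbols). Their ranks were close, with a median difference of 0.664 points. Of the 75, 3 ranked at least 10 points higher after UV, MRPL43 (82.2 and 61.3), MRPL54 (76.3 and 60.8) and MRPS18C (79.2 and 68.6), and 0 after heat shock. Over all symbols 8.24% ranked higher after UV and 7.94% after heat shock. Cytosolic ribosomal protein transcripts, at list medians of 99.0 and 98.6, had few peaks in either treatment, 13 of 72 genes after UV and 14 after heat shock. RPL41 (77.1 and 53.5) and RPL9 (69.1 and the heat shock floor) ranked lower after heat shock, but these genes have many near-identical pseudogenes and their ranks are uncertain. Over all symbols past the filter 58.2% had a UV peak and 47.3% a heat shock peak.

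Coding-sequence peaks lay in long exons after both treatments. The median exon under them had 1297 nt after UV and 1393 nt after heat shock. Exons of 400 nt or more held 88.8% (87.9 to 89.6) of the UV peaks and 91.2% (90.3 to 92.1) of the heat shock peaks. Among peaks without a partner this share was 83.6% after UV and 87.7% after heat shock, against 91.9% at matched sites. Small nucleolar and Cajal body RNAs spread most in rank, from -49.7 to 52.3 points. Of 161, 38 ranked higher after UV and 45 after heat shock, against 8.24% and 7.94% over all symbols. SCARNA17 alone had a peak, after heat shock. The labels describe polyA selection, and how such short RNAs were measured was not tested.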
